A study of Homo sapiens with 6 samples.

Results

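Alu elements are the short interspersed elements of primate genomes. The repeats described here are the 46 Alu names left after AluYa5, AluYa8, AluYb8, AluYb9 and AluYd8, the youngest and most mobile AluY names, are set aside. Members were chosen by name alone, as entries of the raw repeat count matrix that begin with Alu, FLAM, FRAM or FAM and that are also listed in the deposited CPM table, whose values are counts scaled to a common total. The rule gave 46 of the 15600 repeat names in the count matrix. Another 3 names matched but are not listed in the CPM table (AluYb10, AluYb8a1 and AluYb11), and all had 0 counts. By name the 46 fall into 20 remaining AluY entries, 17 AluS entries, 4 AluJ entries and 4 monomers (FLAM_A, FLAM_C, FRAM and FAM), with 1 further entry called Alu that carries no subfamily.

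The samples are total RNA of H9 cells, a long-established line of human embryonic stem cells, made into 2 stranded libraries for each of 3 groups. The RSeT+DT cells were kept in RSeT, a commercial medium for a naive-like state, received 10 nM DZNep and 5 nM TSA as well, and were collected after 48 h. The RSeT cells had the same medium without either agent, and the primed cells were kept in mTeSR medium. DZNep lowers histone methylation by EZH2 through inhibition of S-adenosylhomocysteine hydrolase, and TSA inhibits histone deacetylases. All groups are 1 wild-type line, and separate cultures for the 2 replicates of a group are not stated, so every p-value below reflects library-to-library spread that may be no more than technical.

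Alu elements descend from the gene of 7SL RNA, the RNA scaffold of the signal recognition particle. The oldest forms are free monomers, of which FLAM is a free left arm, FRAM a free right arm and FAM a fossil monomer. A left and a right arm later fused into the dimer that spread through primate genomes, first as AluJ, then as AluS and most recently as AluY. The left arm holds the internal promoter for RNA polymerase III, but most copies lie inside genes, often in introns and untranslated regions, where RNA polymerase II reads through them. BC200, a small RNA known from neurons, is a retroposed copy of an Alu left monomer with its own gene.

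Counts over all repeats summed to 13064045 and 11520770 in RSeT+DT libraries, 38312112 and 17191110 in RSeT libraries and 16838730 and 13628911 in primed libraries, each pair with replicate 1 first as in all values of single libraries here. All 46 members passed the filter on low counts, and the rarest, AluYh9, averaged 107.5 counts a library. Repeats that mark cell states differed between the groups as well. HERVH-int and LTR7, which mark pluripotent cells, summed to between 129623 and 133858 CPM in RSeT+DT cells, 82859 and 85275 CPM in RSeT cells and 27150 and 30093 CPM in primed cells. The naive-like markers (HERVK-int, LTR5_Hs, LTR7Y and SVA_D) summed to between 22121 and 22852, 24690 and 25506, and 2063 and 2168 CPM in the same order of groups, though SVA_D alone overlapped between RSeT and primed cells. The 8-cell markers (HERVL-int, MLT2A1 and MLT2A2) summed to between 1131 and 1151, 1439 and 1490, and 1228 and 1277 CPM, though MLT2A2 was higher in RSeT+DT than in primed libraries. Trophoblast LTRs were all listed, 8 of 8, and summed to between 1872 and 1897, 1995 and 2063, and 1666 and 1728 CPM. Of these LTR17 alone was higher in RSeT+DT than in primed libraries without overlap (577 and 546 CPM against 166 and 171 CPM), while LTR10A, LTR2B, MER21A and MER39B were lower without overlap. The part of these shifts in the Alu results was not tested.

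Alu RNA took a smaller part of all repeat RNA in RSeT+DT cells than in the other groups. The 46 members summed to 146895 and 154245 CPM in RSeT+DT libraries, 182793 and 187476 CPM in RSeT libraries and 198708 and 205750 CPM in primed libraries, so that no 2 groups overlapped. The same order held for each class, with no overlap between groups. AluS, the class with the most counts, summed to 92647 and 97274 CPM in RSeT+DT, 113632 and 116706 CPM in RSeT and 123122 and 126827 CPM in primed libraries. AluJ, the oldest dimers, summed to 37938 and 39813 CPM in RSeT+DT, 49180 and 50659 CPM in RSeT and 54473 and 57413 CPM in primed libraries. In both classes the RSeT libraries lay between the other groups. For the remaining AluY entries the sums were 11848 and 12484 CPM in RSeT+DT, 14389 and 14434 CPM in RSeT and 15082 and 15175 CPM in primed libraries. The monomers had 4311 and 4513 CPM in RSeT+DT, 5397 and 5482 CPM in RSeT and 5813 and 6111 CPM in primed libraries. Sums of different classes are not compared with each other, since they also grow with the number and length of genomic copies.

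**Figure D1:**
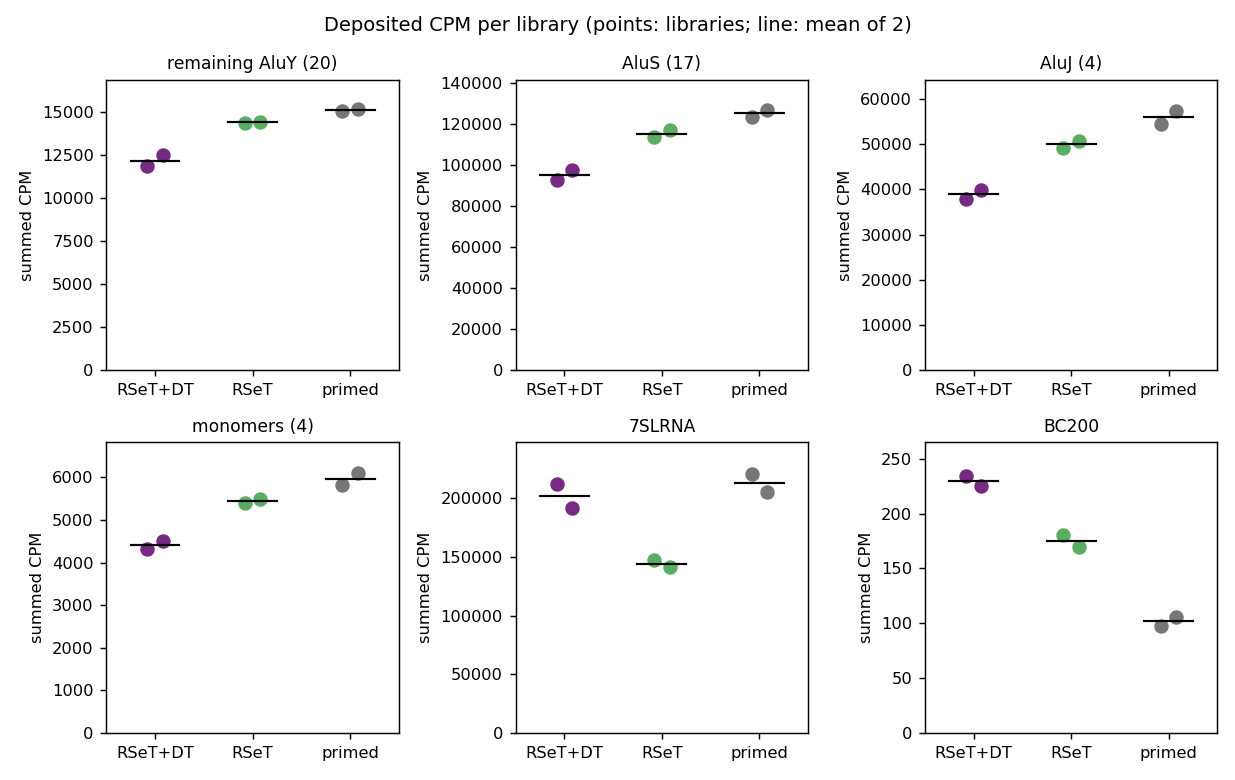
Deposited CPM (y axes, linear) of the 4 Alu classes and of repeats counted beside them, in the 2 libraries of each group (points) with their mean (line). All 4 classes lie lowest in RSeT+DT and highest in primed libraries, while 7SLRNA is lowest in RSeT libraries.

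A CPM value is a share of all repeat counts, and large entries differed between the groups. HERVH-int held 118627 and 114855 CPM in RSeT+DT, 73442 and 75615 CPM in RSeT and 23829 and 26519 CPM in primed libraries. That order is the reverse of the order of the Alu members. 7SLRNA, which was lowest in RSeT libraries, held 212616 and 191692 CPM in RSeT+DT, 147245 and 141036 CPM in RSeT and 221134 and 205322 CPM in primed libraries. The part of either entry in the CPM of the members was not tested. Other dispersed repeats were lower in CPM with the Alu members: of 1136 interspersed features tested, 85.9% lay lower in both RSeT+DT libraries than in both RSeT libraries, as did 41.9% of all 4665 features and 44 of the 46 members. Fold changes were therefore taken from raw counts under several scalings. TMM, which centres on the bulk of all tested features, is the main one, and 3433 of the 4665 features tested are simple repeats. Interspersed scaling sets that centre from interspersed repeats. Alu total scaling divides by the summed counts of all Alu names and so, for the members, reads only the make-up of those counts.

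In RSeT+DT against RSeT cells, under TMM, 28 of 46 members fell and 1 rose at an adjusted p under 0.05 (edgeR), beside 17.4% of all features called lower and 25% called higher. Among interspersed repeats 54.7% were called lower and 5.55% higher, so the members' count lies near that of other dispersed repeats. The median log2 fold change of the members was -0.14, against 0.03 over all features and -0.22 over interspersed features. The fall held for 4 of 4 AluJ entries, 4 of 4 monomers, 14 of 17 AluS entries and 5 of 20 AluY entries. Under interspersed scaling 19 members were called higher and 0 lower, where 20.7% of interspersed features (37.1% of all) were called higher and 18.6% (6.02%) lower, so the direction of most members follows the choice of scale. The differences of the members from each other do not depend on how a whole library is scaled.

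AluJr4 had the lowest fold change of the members. It stood at 2201 and 2314 CPM in RSeT+DT libraries and 3019 and 3078 CPM in RSeT libraries, without overlap, and its TMM log2 fold change was -0.28 (SE 0.037, edgeR adjusted p = 7.83e-07). AluJb, the entry with the most counts, had 16609 and 17456 CPM in RSeT+DT and 21358 and 22005 CPM in RSeT libraries, a log2 fold change of -0.19 (SE 0.0234). AluJo and AluJr both gave -0.21. Among AluS entries the 3 largest falls were those of AluSz6 (-0.21), AluSc5 (-0.20) and AluSx4 (-0.18), and the abundant AluSz, AluSx, AluSx1 and AluSp gave -0.16, -0.13, -0.11 and -0.10. All of these passed the test under TMM, and under interspersed scaling all but AluJr4 lay above 0. AluSc, AluSx3 and AluSq10, the 3 AluS entries not called, had -0.02, -0.03 and 0.06.

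AluYi6, an AluY entry with few counts, was the 1 member called higher. It had 42.8 and 46.4 CPM in RSeT+DT libraries against 43.8 and 40.3 CPM in RSeT libraries, so the groups overlapped in CPM, and its TMM log2 fold change was 0.23 (SE 0.0791, edgeR adjusted p = 0.0236). Without RSeT+DT replicate 2 or without RSeT replicate 2 no member was called higher under TMM. AluY itself, the entry without a suffix that holds most AluY counts, fell by 0.10 on the log2 scale (SE 0.0274, edgeR adjusted p = 0.0056), with 9764 and 10310 CPM in RSeT+DT and 11907 and 11964 CPM in RSeT libraries. AluYc, AluYk3, AluYk11 and AluYj4 fell by 0.16, 0.17, 0.19 and 0.14 on the log2 scale. The AluY entries thus ranged from -0.23 (AluYk12, which did not pass) to 0.23, and the AluJ entries from -0.28 to -0.19.

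In RSeT against primed cells, under TMM, 13 members rose and 1 fell. Over all features 22.8% were called higher and 23.8% lower, and among interspersed features 50.8% were called higher and 8.01% lower. Of the AluY entries 10 of 20 were called higher, which lies near the 50.8% of interspersed features. The other classes had fewer such calls, with 3 of 17 AluS entries, 0 of 4 AluJ entries and 0 of 4 monomers. The median log2 fold change was 0.22 for the AluY entries and 0.02 for the AluS entries, where interspersed features had 0.16. Under interspersed scaling 3 members were called higher (AluYh3a3, AluYk11 and AluYe5) and 27 lower, beside 27.7% and 23.9% of interspersed features (13.7% and 36.1% of all), and the 3 became 1 without primed replicate 2 and 5 without either RSeT+DT library.

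AluYh3a3 had the largest fold change of any member in this comparison. It stood at 79.0 and 71.3 CPM in RSeT libraries and 49.8 and 47.3 CPM in primed libraries, a TMM log2 fold change of 0.77 (SE 0.0638, edgeR adjusted p = 2.3e-10), and it passed as higher under each of the 6 scalings tried. AluYh9, the rarest member, had 6.37 and 6.34 CPM in RSeT and 4.455 and 5.65 CPM in primed libraries and rose by 0.48 on the log2 scale (SE 0.169, edgeR adjusted p = 0.0231). AluYi6 rose by 0.34, with 43.8 and 40.3 CPM in RSeT libraries and 38.9 and 33.8 CPM in primed libraries. AluYg6, AluYk11, AluYe5, AluYh3, AluYm1, AluYk3 and AluYf1 rose by 0.33, 0.32, 0.28, 0.24, 0.22, 0.21 and 0.14, though AluYf1 overlapped in CPM and lay at -0.02 under interspersed scaling. AluY, which holds most AluY counts, and AluYc did not pass, at 0.04 and 0.07, and the other 8 AluY entries not called ranged from -0.08 (AluYh7) to 0.31 (AluYk12).

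AluSq10, AluSp and AluSg were the AluS entries called higher, with log2 fold changes of 0.15, 0.09 and 0.08. AluSp and AluSg were lower in CPM without overlap, turned negative under library totals and were called lower under interspersed scaling, and AluSq10 lay at -0.02 under interspersed scaling. In CPM AluSq10 overlapped between the groups, with 304 and 310 CPM in RSeT libraries and 294 and 315 CPM in primed libraries. AluSx, AluSz and AluSx1 gave 0.01, -0.01 and -0.03 and did not pass, nor did AluJb, AluJo and AluJr at -0.02, -0.05 and -0.04. FRAM, the free right arm, was the 1 member called lower under TMM. It had 731 and 750 CPM in RSeT libraries and 868 and 903 CPM in primed libraries, and fell by 0.13 on the log2 scale (SE 0.0435, edgeR adjusted p = 0.0195), but it did not pass with any 1 RSeT or primed library left out. Without either RSeT+DT library, 5 members were called lower in RSeT against primed cells.

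In RSeT+DT against primed cells, under TMM, 8 members rose and 21 fell. Over all features 25.1% were called higher and 20.6% lower, and among interspersed features 24.4% and 34.3%. Here the classes parted: 7 of 20 AluY entries were called higher and 1 lower, while 11 of 17 AluS entries, 4 of 4 AluJ entries and 4 of 4 monomers were called lower and 1 AluS entry higher. This comparison shares its libraries with the other 2 and adds no independent evidence to them. AluYh3a3 stood at 65.0 and 64.4 CPM in RSeT+DT and 49.8 and 47.3 CPM in primed libraries, a log2 fold change of 0.70 (SE 0.0698, edgeR adjusted p = 7.35e-09). AluYi6 rose by 0.57, with 42.8 and 46.4 CPM in RSeT+DT and 38.9 and 33.8 CPM in primed libraries. AluYh9 rose by 0.47 and AluSq10 by 0.21, but both overlapped in CPM: AluSq10 had 280 and 297 CPM in RSeT+DT and 294 and 315 CPM in primed libraries, and was at -0.08 under library totals. The other AluY entries called higher under TMM were AluYe5, AluYf1, AluYh3 and AluYm1, at 0.31, 0.24, 0.21 and 0.15. In CPM AluYm1 was lower, with 457 and 463 CPM in RSeT+DT and 504 and 506 CPM in primed libraries, and under library totals it was called lower at -0.13 (edgeR adjusted p = 0.042). AluYh3 was also lower in CPM without overlap, with 253 and 273 CPM in RSeT+DT and 274 and 280 CPM in primed libraries, and AluYf1 overlapped, with 217 and 239 CPM against 233 and 239 CPM. Under library totals these were at -0.07 and -0.05 and did not pass.

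Under interspersed scaling the members called in this last comparison were 12 higher and 15 lower, beside 29.6% and 27.3% of interspersed features (28.1% and 17.6% of all). Without primed replicate 1 the 15 became 9. AluYj4 fell by 0.12 on the log2 scale under TMM, and AluY and AluYc did not pass at -0.06 and -0.09. The largest AluS falls were those of AluSz6 (-0.22), AluSq (-0.21) and AluSq4 (-0.21), with AluSz at -0.17, AluSx1 at -0.14 and AluSx at -0.12, while AluSp did not pass at -0.01. AluJo and AluJr4 gave -0.27, AluJr -0.25 and AluJb -0.21.

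**Figure D2:**
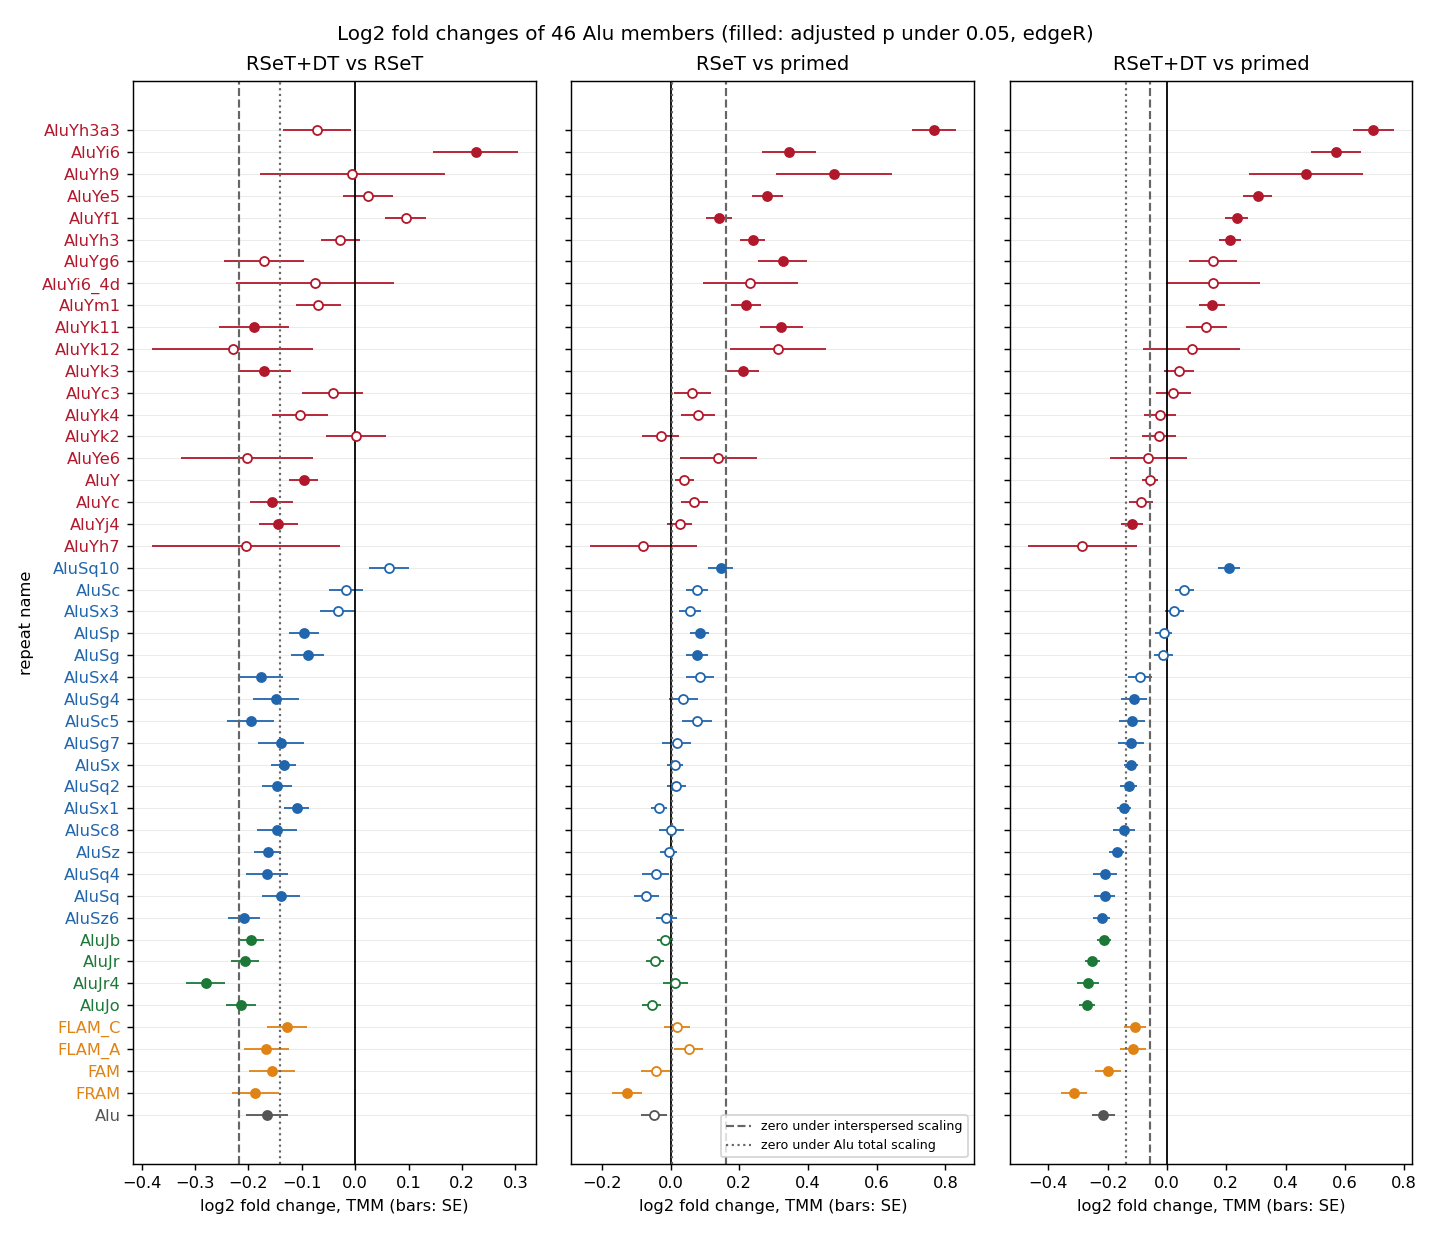
TMM log2 fold change (x axes, bars: SE) of the 46 members (rows, coloured by class) in the 3 comparisons, filled where the adjusted p was under 0.05. Dashed and dotted lines mark where 0 lies under interspersed and Alu total scaling: AluYi6, AluYf1 and AluSq10 lie to the right of the dotted line and AluJo and FRAM to its left in each panel.

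Shares of the summed counts under Alu names use a total that holds no other repeat name. On this scale AluJ, the oldest dimer class, was lowest in RSeT+DT and highest in primed cells, and AluY and AluS ran the other way. AluJ held 25.7% and 25.7% of summed Alu counts in RSeT+DT libraries, 26.8% and 26.9% in RSeT libraries and 27.3% and 27.8% in primed libraries. The remaining AluY entries held 8.02% and 8.05% in RSeT+DT, 7.84% and 7.67% in RSeT and 7.57% and 7.36% in primed libraries. AluS, the largest class, held 62.7% and 62.7% in RSeT+DT, 61.9% and 62.0% in RSeT and 61.8% and 61.5% in primed libraries. The groups did not overlap in any of these 3 classes, and the 95% Wilson interval of each share reached at most 0.0709 percentage points to either side, which covers counting error only. The mobile AluY names set aside held 0.567% and 0.525% in RSeT+DT, 0.453% and 0.407% in RSeT and 0.308% and 0.273% in primed libraries. Shares of 1 total are not independent, since a loss in AluJ must appear as a gain elsewhere.

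Ratios of 2 classes within a library are free of that sum. The log2 ratio of AluY to AluJ counts was -1.68 and -1.67 in RSeT+DT, -1.77 and -1.81 in RSeT and -1.85 and -1.92 in primed libraries. The log2 ratio of AluS to AluJ was 1.29 and 1.29 in RSeT+DT, 1.208 and 1.204 in RSeT and 1.18 and 1.14 in primed libraries. In these 2 ratios, which share AluJ, each step between group means was larger than the gap between replicates. The mean ratio of AluY to AluJ spanned 0.21 on the log2 scale from primed to RSeT+DT cells. The log2 ratio of AluY to AluS was -2.967 and -2.962 in RSeT+DT, -2.981 and -3.015 in RSeT and -3.029 and -3.063 in primed libraries. The groups did not overlap, but the step from RSeT to RSeT+DT, 0.034, was no larger than the gap between the RSeT replicates. With 2 libraries a group, an exact two-sided permutation test of a ratio cannot go below p = 0.333.

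**Figure D3:**
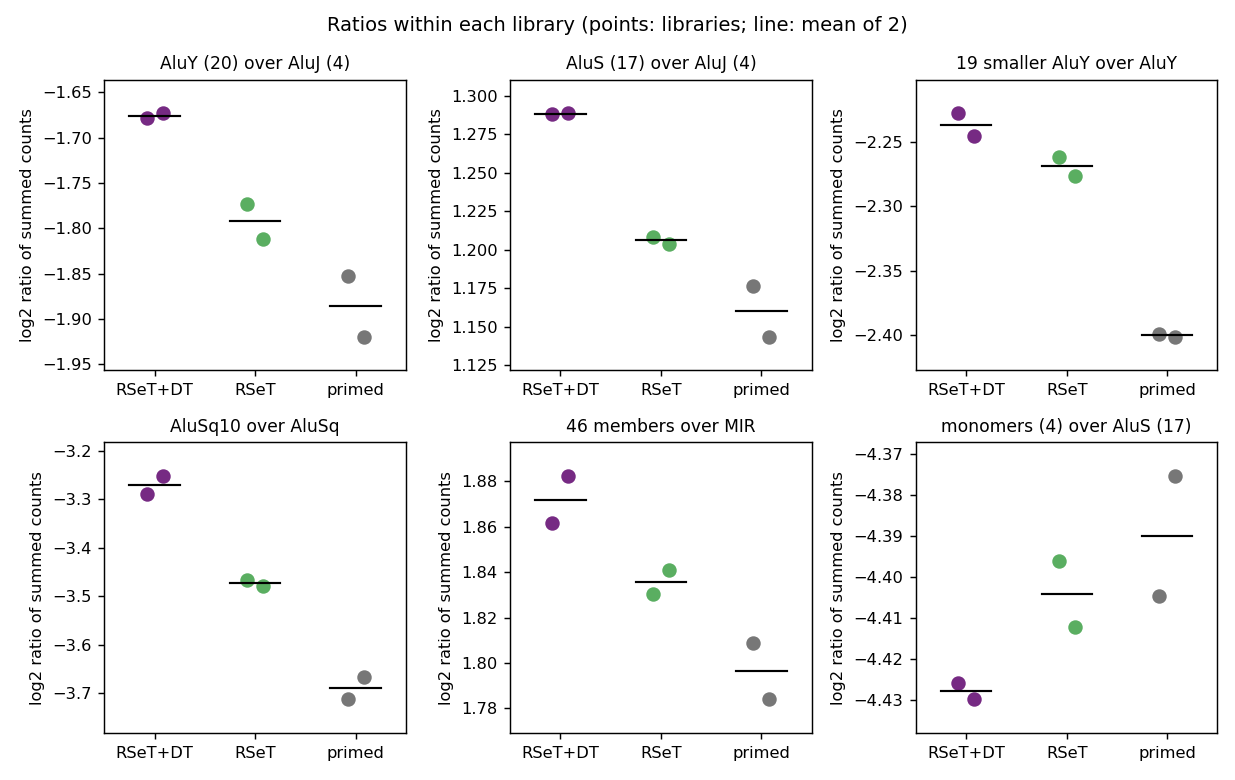
Log2 ratios of summed counts within each library (points; line: mean of 2 libraries) in RSeT+DT, RSeT and primed cells. The first 5 ratios are highest in RSeT+DT and lowest in primed libraries, and monomers over AluS, the last, overlaps between RSeT and primed.

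Under Alu total scaling, RSeT+DT against RSeT cells had 7 members called higher and 5 lower, where 31.7% of all and 12.4% of interspersed features were called higher and 9.07% of all and 28.9% of interspersed features lower. RSeT against primed cells had 14 higher and 3 lower, beside 48.4% and 8.54% of interspersed features (21.8% and 23.5% of all). RSeT+DT against primed cells had 17 higher and 6 lower, beside 37.6% and 15.5% of interspersed features (32.4% and 12.9% of all). The 14 became 8 without RSeT replicate 1 and 9 without either primed library, and the 3 became 0 without either RSeT library, 1 without either primed library and 5 without either RSeT+DT library. The backgrounds move with the scale and differ between comparisons, so the counts are read by class. No AluY entry was called lower in any of the 3 comparisons under this scaling, and 4, 10 and 12 of 20 were called higher in the order of comparisons given. The 10 of 20 in RSeT against primed cells lies near the 48.4% of interspersed features called higher there. No AluJ entry was called higher, and 4, 1 and 4 of 4 were called lower.

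The smaller AluY entries gained on AluY itself. The log2 ratio of the 19 smaller AluY entries to AluY itself was -2.23 and -2.25 in RSeT+DT, -2.26 and -2.28 in RSeT and -2.40 and -2.40 in primed libraries, so most of the difference lay between RSeT and primed cells. On the share of Alu counts, 8 of 20 AluY entries (AluYm1, AluYh3, AluYf1, AluYe5, AluYh9, AluYi6, AluYk4 and AluYi6_4d) ran RSeT+DT above RSeT above primed with no overlap, and none ran the other way. Over all tested features 11.4% ran in that order and 3.86% in the reverse, and over interspersed features 14.1% and 5.19%. With libraries scaled to the Alu total, AluYf1, AluYi6, AluYe5 and AluYh3 passed in both RSeT+DT against RSeT and RSeT against primed cells. AluYf1 had log2 fold changes of 0.24 and 0.14 in those comparisons, and AluYi6 0.37 and 0.34. AluYh3a3 had 0.07 in RSeT+DT against RSeT cells, which did not pass, and 0.76 in RSeT against primed cells.

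AluY, the largest AluY entry, held 6.61% and 6.65% of Alu counts in RSeT+DT, 6.48% and 6.36% in RSeT and 6.36% and 6.18% in primed libraries, and under Alu total scaling it passed only in RSeT+DT against primed cells, at 0.08 (edgeR adjusted p = 0.00886). AluYh7 was the 1 AluY entry with a value below 0 there, at -0.15, with 60 and 66 counts in RSeT+DT libraries, and did not pass. The entries with the fewest counts (AluYh7, AluYh9, AluYi6_4d and AluYk12) had SEs of 0.139 or more under TMM in all 3 comparisons, so that a change of the size seen in AluYf1 was not detectable at this depth.

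AluS entries did not all run the same way. On the share of Alu counts AluSc, AluSg, AluSp, AluSx3 and AluSq10 ran RSeT+DT above RSeT above primed with no overlap. AluSz and AluSz6 ran the reverse way, and the other 10 of 17 kept no such order. The background was 11.4% of all tested features in the first order and 3.86% in the reverse, and 14.1% and 5.19% of interspersed features. AluS entries in the reverse order are too few to be judged against these percentages. AluSq10 held 0.189% and 0.191% of Alu counts in RSeT+DT, 0.166% and 0.165% in RSeT and 0.147% and 0.152% in primed libraries. Set against AluSq, a pair picked after their values were seen, its log2 ratio was -3.29 and -3.25 in RSeT+DT, -3.47 and -3.48 in RSeT and -3.71 and -3.67 in primed libraries, the groups well apart. AluSc held 3.21% and 3.23% of Alu counts in RSeT+DT, 2.98% and 2.93% in RSeT and 2.83% and 2.80% in primed libraries, and under Alu total scaling its log2 fold changes were 0.13 in RSeT+DT against RSeT and 0.07 in RSeT against primed cells, both past the test. The abundant AluSx stayed between 10.3% and 10.5% in all 6 libraries.

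**Figure D4:**
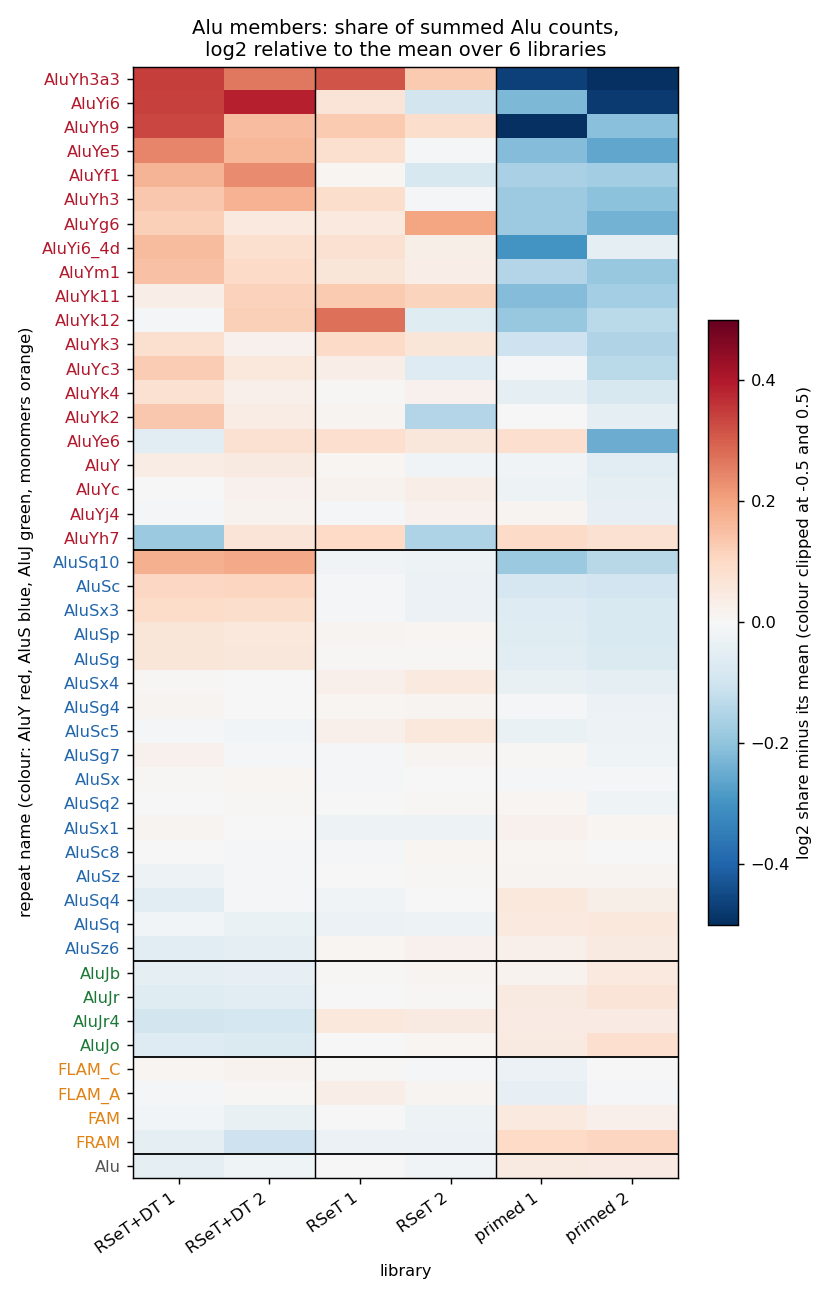
Share of summed Alu counts of each member (rows, by class) in each of the 6 libraries (columns), as log2 relative to that member's mean over the libraries, with colour clipped at -0.5 and 0.5. Most AluY rows and 5 AluS rows run from red in RSeT+DT to blue in primed libraries, and AluJ rows and FRAM the other way.

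The AluJ entries lost share together in RSeT+DT cells. AluJb held 11.24% and 11.26% of Alu counts in RSeT+DT, 11.63% and 11.69% in RSeT and 11.74% and 11.97% in primed libraries, and AluJo and AluJr ran in the same order with no overlap. AluJr4 held 1.49% and 1.49% in RSeT+DT libraries, below 1.644% and 1.635% in RSeT and 1.631% and 1.632% in primed libraries. Its RSeT shares thus lay just above the primed shares without overlap, opposite to the other AluJ entries. Under Alu total scaling that difference was 0.0068 on the log2 scale and did not pass. Under Alu total scaling the 4 AluJ entries fell in RSeT+DT against RSeT cells by 0.05 (AluJb), 0.06 (AluJr), 0.07 (AluJo) and 0.14 (AluJr4) on the log2 scale. The number of members called lower there, 5 with all libraries, was 1 without RSeT replicate 1 or RSeT replicate 2 and 2 without primed replicate 1 or primed replicate 2. In RSeT against primed cells AluJo was the 1 AluJ entry that passed, at -0.06 (edgeR adjusted p = 0.0328).

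The monomers lay between the dimer classes: against AluJ they stood higher in RSeT+DT libraries, and against AluS lower. Their log2 ratio to AluJ was -3.138 and -3.141 in RSeT+DT, -3.188 and -3.208 in RSeT and -3.228 and -3.232 in primed libraries, with no overlap. To AluS it was -4.426 and -4.430 in RSeT+DT, below -4.396 and -4.412 in RSeT and -4.405 and -4.375 in primed libraries, which overlapped with each other. Their share of all Alu counts was 2.92% and 2.91% in RSeT+DT, 2.94% and 2.91% in RSeT and 2.92% and 2.96% in primed libraries, with all 3 groups overlapping. FRAM was the 1 monomer called under Alu total scaling. It held 0.394% and 0.379% in RSeT+DT, 0.398% and 0.399% in RSeT and 0.436% and 0.438% in primed libraries. Scaled to the Alu total, FRAM fell by 0.13 on the log2 scale in RSeT against primed cells (edgeR adjusted p = 0.012) and by 0.18 in RSeT+DT against primed cells (edgeR adjusted p = 0.0016). The left-arm entries FLAM_A and FLAM_C lay between -0.02 and 0.05 in all 3 comparisons under that scaling, and FAM between -0.06 and -0.01, and none passed.

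Under TMM all 4 monomers fell in RSeT+DT against RSeT cells, FLAM_A by 0.17, FLAM_C by 0.13, FRAM by 0.19 and FAM by 0.16 on the log2 scale. All 4 were called lower, beside 54.7% of interspersed features and 17.4% of all features. Under interspersed scaling all 4 lay above 0, so their direction follows the choice of scale. FLAM_A had 1108 and 1171 CPM in RSeT+DT libraries and 1414 and 1431 CPM in RSeT libraries, and FLAM_C had 2131 and 2248 CPM in RSeT+DT and 2639 and 2680 CPM in RSeT libraries. In RSeT against primed cells FLAM_A, FLAM_C and FAM gave 0.05, 0.02 and -0.04 and did not pass. In RSeT+DT against primed cells all 4 fell, from -0.11 for FLAM_C to -0.31 for FRAM. All 4 were called lower there, beside 34.3% of interspersed features and 20.6% of all features. In that comparison all 4 also lay below 0 under interspersed scaling, but 3 of 4 lay above 0 under MIR and L2 scaling. 7SLRNA and BC200, kin of the Alu left arm, are counted under their own names. In RSeT+DT against RSeT cells 7SLRNA rose by 0.64 and BC200 by 0.54 on the TMM log2 scale, and in RSeT against primed cells 7SLRNA fell by 0.43 while BC200 rose by 0.92. The log2 ratio of the monomers to 7SLRNA was -5.62 and -5.41 in RSeT+DT, -4.77 and -4.69 in RSeT and -5.25 and -5.07 in primed libraries. The FLAM entries and the 2 small RNAs thus differed in the size or sign of their fold change in both comparisons, a difference that was not itself tested. How reads that match several of these names were assigned is not given in the sources used here.

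Against the ancient elements MIR and L2, which are likewise dispersed through genes, Alu counts stood slightly higher in RSeT+DT cells. The log2 ratio of the 46 members to MIR was 1.86 and 1.88 in RSeT+DT, 1.83 and 1.84 in RSeT and 1.81 and 1.78 in primed libraries. To L2 it was 1.99 and 2.01 in RSeT+DT, 1.93 and 1.91 in RSeT and 1.93 and 1.90 in primed libraries, where RSeT and primed overlapped. The entry called Alu, which names no subfamily, had 151 and 161 CPM in RSeT+DT, 194 and 196 CPM in RSeT and 218 and 224 CPM in primed libraries, and a TMM log2 fold change of -0.17 in RSeT+DT against RSeT cells. Counts sum every genomic copy of a name, in a bulk sample, so fewer cells with Alu RNA and less Alu RNA per cell cannot be told apart, nor can many copies that changed a little and few that changed much.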

How the data were processed

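RNA of H9 cells was sequenced in 6 libraries, 2 in each of the groups RSeT+DT, RSeT and primed. The authors deposited raw counts per repeat name and a CPM table. The submitters' processing notes name STAR 2.7.8a, featureCounts and Trimmomatic 0.39, with GRCh38; the repeat annotation and the handling of strand and of reads with several matches are not given in sources used here. Dividing the counts by each library's sum over listed entries gave back the deposited CPM within 0.00442, and entries were listed from 10 counts in all.

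From the counts, edgeR 4.0.16 (R 4.3.3) gave quasi-likelihood tests in 1 fit of all 6 libraries, with group as the only term, TMM factors and Benjamini-Hochberg adjustment over the 4665 features kept by filterByExpr (minimum count 10, minimum total 15), at 0.05. The biological coefficient of variation was 5.49% and the residual degrees of freedom were 3. The tests also borrowed spread from the other features, with a median of 21.7 prior degrees of freedom, so small p-values rest largely on that borrowed spread. Depth ran from 11520770 to 38312112 repeat counts a library. On simulated counts for those 4665 features in RSeT+DT against RSeT cells, the test found 0, 8, 31 and 49 of 50 features changed by 0.1, 0.2, 0.5 and 1 on the log2 scale. Falls of the size seen here are thus near its limit for a typical feature. The changed features were drawn from all repeats with a mean count of at least 50, so the limit for the abundant members was not simulated. Over all listed repeats the replicates of each pair differed by more than counting error. Chi-square over its degrees of freedom was 11.2, 4.35 and 19.8 there for the RSeT+DT, RSeT and primed pairs. From member counts alone, with each library set to its own member total, it was 1.45, 5.31 and 8.54 in the same order. The make-up of the RSeT+DT members thus differed little beyond counting error. This value does not cover their summed level, which was 14.7% and 15.4% of repeat counts in the RSeT+DT pair.

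Alternatives were RLE size factors, library totals, factors from interspersed repeats, from all Alu names or from MIR and L2, no count filter, mean counts from 50 up, DESeq2 1.42.0, limma 3.58.1 on log2 of the CPM with 1 or 0.1 added, a replicate block, a fit of only the compared groups, and each library left out. Leaving out libraries under interspersed and Alu total scaling was added after seeing the data. Members, classes, markers and tests were chosen with earlier results of these data known. Named in every comparison were 13 entries (AluY, AluYc, AluSx, AluSx1, AluSz, AluSp, AluJb, AluJo, AluJr, FLAM_A, FLAM_C, FRAM and FAM) and, per class, up to 3 of the largest rises and 3 of the largest falls that passed with a mean count of at least 50; other members named were picked after their values were seen. Sequences are not reported here.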

Additional observations from a re-analysis of the deposited data

How the results depend on the processing

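The direction of most members rests on how libraries are scaled, and their order among themselves does not. Each feature's log2 fold change shifted from its TMM value under the other scalings, and the median shift over all features is given here. In RSeT+DT against RSeT, RSeT against primed and RSeT+DT against primed cells it was 0.22, -0.16 and 0.06 under interspersed scaling. Under MIR and L2 scaling it was 0.20, 0.02 and 0.22 in the same order. It was 0.14, -0.0036 and 0.14 under Alu total scaling and -0.15, -0.13 and -0.29 under library totals. Interspersed scaling turned the sign of log2 fold changes in RSeT+DT against RSeT cells to AluY 0.12, AluYc 0.063, AluSx 0.086, AluSx1 0.11, AluSz 0.056, AluSp 0.12, AluJb 0.025, AluJo 0.0058, AluJr 0.013, FLAM_A 0.053, FLAM_C 0.092, FRAM 0.033, FAM 0.064, AluYk11 0.030, AluYk3 0.049, AluSz6 0.011, AluSc5 0.024 and AluSx4 0.044. In RSeT against primed cells it turned the sign to AluY -0.12, AluYc -0.092, AluSx -0.15, AluSp -0.077, FLAM_A -0.11, FLAM_C -0.14, AluSq10 -0.016 and AluSg -0.085. MIR and L2 scaling turned the sign of log2 fold changes in RSeT+DT against RSeT cells to AluY 0.11, AluYc 0.046, AluSx 0.069, AluSx1 0.093, AluSz 0.039, AluSp 0.11, AluJb 0.0077, FLAM_A 0.036, FLAM_C 0.075, FRAM 0.016, FAM 0.046, AluYk11 0.011, AluYk3 0.031, AluSc5 0.0068 and AluSx4 0.027. The same scaling, in RSeT+DT against primed cells, turned the sign to AluY 0.16, AluYc 0.13, AluSx 0.098, AluSx1 0.076, AluSz 0.051, AluSp 0.21, AluJb 0.0083, FLAM_A 0.11, FLAM_C 0.11, FAM 0.020, AluYj4 0.10, AluSq 0.010 and AluSq4 0.011. Alu total scaling turned the sign of log2 fold changes in RSeT+DT against RSeT cells to AluY 0.046, AluSx 0.0092, AluSx1 0.034, AluSp 0.047 and FLAM_C 0.016. The same scaling, in RSeT+DT against primed cells, turned the sign to AluY 0.080, AluSx 0.015, AluSp 0.13, FLAM_A 0.022, FLAM_C 0.029 and AluYj4 0.019. Library totals, and limma on CPM, put AluSp at -0.047 and AluSg at -0.055 in RSeT against primed cells and AluSq10 at -0.077 in RSeT+DT against primed cells. In the last comparison library totals also gave AluYm1 -0.13, a call of lower (edgeR adjusted p = 0.042) where TMM called it higher, and AluYh3 -0.073 and AluYf1 -0.049, which did not pass. Library totals also put AluSx at -0.12 in RSeT against primed cells.

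In RSeT+DT against RSeT cells, the 1 member called higher became 19 under interspersed, 15 under MIR and L2 and 7 under Alu total scaling, 2 with the replicate block, and 0 with RLE factors, library totals, no filter, a mean count of at least 50, DESeq2 or limma at either pseudocount. The 28 called lower became 0 under interspersed and MIR and L2 scaling, 5 under Alu total scaling and 16 with limma at a pseudocount of 0.1. In RSeT against primed cells, the 13 called higher became 5 with library totals, 3 under interspersed scaling and 1 with limma at either pseudocount. The 1 called lower became 13 with library totals, 27 under interspersed and 3 under Alu total scaling, 5 with a mean count of at least 50 or only the groups compared, 2 with the replicate block and 0 with RLE factors, no filter or limma at a pseudocount of 0.1. In RSeT+DT against primed cells, the 8 called higher became 2 with library totals, 17 under Alu total and 28 under MIR and L2 scaling and 1 with limma at either pseudocount, and the 21 called lower became 35, 6 and 0 under those scalings and 32 with limma at a pseudocount of 1. The causes were not tested.

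With each library left out in turn, members called higher and lower under TMM numbered 0 to 2 and 20 to 28 in RSeT+DT against RSeT cells, 9 to 17 and 0 to 5 in RSeT against primed cells, and 7 to 8 and 14 to 19 in RSeT+DT against primed cells. Under Alu total scaling the ranges were 5 to 8 and 1 to 5, 8 to 15 and 0 to 5, and 14 to 17 and 4 to 7 in the same order. Of those, the 5 called lower in RSeT+DT against RSeT cells became 1 without either RSeT library and 2 without either primed library. In RSeT against primed cells under Alu total scaling, the 14 called higher became 8 without RSeT replicate 1 and 9 without either primed library, and the 3 called lower became 0 without either RSeT library and 1 without either primed library. Under interspersed scaling the ranges were 13 to 19 and 0 to 0, 1 to 5 and 19 to 29, and 8 to 12 and 9 to 15, the lowest, 9 called lower, without primed replicate 1. Where a group is left with 1 library, that library is assumed to vary like the others.

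Replicate numbers are shared across groups, but nothing in the labels pairs the libraries. Same-numbered libraries did not deviate together over 2942 features (r = -0.0074 for RSeT+DT and RSeT, 0.084 for RSeT and primed, -0.033 for RSeT+DT and primed). Over the 46 members alone r was -0.34, 0.099 and -0.31 in the same order. The block is given only as an alternative. With the replicate block, members called higher and lower numbered 2 and 28, 13 and 2, and 7 and 21 in the 3 comparisons.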

Other observations

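Across the 46 members, rarer names tended to have the higher fold change against primed cells. Spearman's rho between the TMM log2 fold change and the mean count was -0.539 in RSeT against primed cells and -0.155 in RSeT+DT against RSeT cells, as a description only, since members share libraries and the rare names are nearly all AluY. Within the 20 AluY entries rho was -0.346 in RSeT against primed cells and 0.253 in RSeT+DT against RSeT cells. Within the 17 AluS entries it was -0.294 and 0.157 in the same order of comparisons.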
